A study of Mus musculus and Mus musculus
Oryx dammah with 30 samples.

Results

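Nuclear-encoded respiratory chain genes were taken as the protein-coding genes whose names start with Nduf followed by a, b, c, s or v, with Cox and a number from 4 to 8, with Uqcr or with Atp5. The rule found 88 of 53023 genes listed in the four-cell table and in the replication table, and 92 of 55364 in the two-cell table, of which 87 gene identifiers were shared by all 3 tables. In the four-cell table they comprised 38 subunit genes of complex I, 8 complex I assembly factors (Ndufaf1 to Ndufaf8), 8 genes of complex III, 18 of complex IV and 16 of complex V. In the two-cell table the numbers were 39, 8, 8, 19 and 18. The name decides the complex here, so that Ndufa4, whose protein is found in complex IV, is counted with complex I, and Cox5b-ps and Ndufb1-ps, which the two-cell table lists as protein-coding, are kept. Reads of Cox5b and Cox5b-ps cannot be separated with certainty.

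The respiratory chain sits in the inner mitochondrial membrane. Complex I takes electrons from NADH, complex III passes them from ubiquinol to cytochrome c, complex IV hands them to oxygen, and complex V uses the resulting proton gradient to make ATP. Most subunits are encoded in the nucleus, translated in the cytosol and assembled in the mitochondrion with a small core encoded by mitochondrial DNA, and assembly factors such as the Ndufaf proteins help to build complex I without staying in it. Oocytes supply early embryos with mitochondria and with maternal mRNA, and cleavage-stage embryos live on respiration fuelled mainly by pyruvate.

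RNA-seq was performed on pools of nuclear transfer (NT) embryos, made by fusing C2C12 cells, a myoblast line from C3H mice, with embryos from C57BL/6 oocytes and DBA/2 sperm that were arrested with 0.1 μg/mL demecolcine. Four-cell NT embryos were made at 46 hours post insemination (hpi) and cultured for 24 h to 70 hpi, without α-amanitin (3 libraries: S15, S17 and S7) or with α-amanitin (3 libraries: S16, S18 and S8), in pools of 3 embryos. Two-cell NT embryos were made at 21 hpi (early, cultured to 45 hpi) or 30 hpi (late, cultured to 54 hpi), without or with α-amanitin (6 libraries each), in pools of 5 embryos. In the replication experiment, C2C12 cells were transferred to four-cell embryos before or after DNA replication and cultured for 24 h without α-amanitin. The labels call its groups DR and D without spelling the letters out (3 libraries each, pools of 4 embryos). All groups carried demecolcine, and recipient and donor nuclei shared 1 cytoplasm, so the values do not say from which genome a transcript came. α-Amanitin blocks RNA polymerase II (Pol II), while transcripts already in the egg can remain in α-amanitin (+) embryos as far as they are stable. The values are relative to all counted fragments, so a difference between α-amanitin (−) and (+) embryos does not by itself show new transcription of a gene. In such pools, fewer cells and less RNA per cell cannot be told apart.

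Values are fragments counted per kilobase of gene and scaled to the size of the library (FPKM), so that each value is relative to what else was counted in its library. A gene entered the test where 3 or more libraries reached an FPKM of 1. Values were compared as log2(FPKM + 1) by limma, p-values were adjusted over all genes tested, and a gene was called at an adjusted p under 0.05. Changes are given on that log2 scale, where those of low genes are understated. Between 1136771 and 3101002 reads were counted per four-cell library, 4712268 to 10503779 per two-cell library and 2603946 to 19181387 per replication library. The two-cell libraries came as 2 sets of columns, NT1 to NT3 with Am1 to Am3 (without and with α-amanitin), and R1 to R3 with RAm1 to RAm3 (likewise). The names do not say which set holds early and which holds late embryos, so the sets are kept under these names. The sets stood apart in their composition. External spike-in RNA (ERCC) made up 3.15% to 6.26% of reads in the NT libraries and 6.54% to 8.93% in the Am libraries, but 2.38% to 2.81% in R and 8.77% to 11.3% in RAm. The mitochondrial genome is not among the two-cell rows, and 11 nuclear copies of mitochondrial genes took 9.79% to 18.8% of reads in NT, 22.4% to 26.4% in Am, 8.07% to 11.3% in R and 42.5% to 46.9% in RAm. Oocyte and early embryo markers were detected in all libraries, with 7 to 10 of 10 at an FPKM of at least 1. Of the myoblast markers, 1 to 6 of 10 reached an FPKM of 1, Pax7 was at 0 in every library and Myog was at 0 in the two-cell table, while cumulus cell markers summed to at most 2.69 FPKM. The study describes the libraries of each experiment as independent biological replicates, and each is a pool, so p-values measure the spread between pools. The fit of both sets of two-cell libraries together held no term for the set. Its SEs and p-values therefore also take in the difference between the sets.

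The members differed widely in level. Over the 18 four-cell and two-cell libraries, Cox8a, a small complex IV subunit, had the highest mean (931 FPKM), followed by the complex III subunit Uqcr10 (607), the complex IV subunits Cox6a1 (475), Cox6b1 (435), Cox7a2 (423) and Cox4i1 (422), and the complex I membrane arm subunit Ndufa1 (435). This order of pooled means did not hold in every group, and in RAm1 to RAm3 Ndufa1, with 251, 326 and 118 FPKM, lay above Uqcr10, with 53.8, 95.7 and 38.6. The catalytic F1 subunit gene Atp5b had 197 FPKM and its neighbour Atp5c1, the rotating γ subunit, 227. Core subunits of complex I that carry its redox centres ranged widely, from 4.79 FPKM for Ndufs1 and 13.6 for the NADH-binding Ndufv1 to 87.3 for Ndufv2, 88.6 for Ndufs7 and 194 for Ndufs8. At the low end were 3 isoform genes known from heart, skeletal muscle or hypoxia, namely Cox6a2 (0.440), Cox8b (0.287) and Ndufa4l2 (0.0430). These 3 did not reach an FPKM of 1 in 3 libraries of any table and could not be tested, which left 85 members in the four-cell table, 89 in the two-cell table and 85 in the replication table.

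Promoters of 3 members to which the comparisons below return are shown, as the RefSeq sequence (GRCm38.p6) from 250 bases before to 50 bases after the start site, 5′ to 3′ on the strand of the gene. Ndufaf1 (chr2:119662785-119663084, − strand) and Ndufaf4 (chr4:24897833-24898132, + strand) are the members called in four-cell NT embryos, and Uqcrfs1 (chr13:30545267-30545566, − strand), the Rieske iron-sulphur protein of complex III, is the complex III gene with the largest change in the R and RAm libraries. Capitals mark matches to 4 motifs searched on both strands: GCGCANGCG, the motif of NRF1, CCGGAAG, that of the ETS family with GABPA, AAGATGGC, that of YY1, and GGGCGG, the GC box.
Ndufaf1: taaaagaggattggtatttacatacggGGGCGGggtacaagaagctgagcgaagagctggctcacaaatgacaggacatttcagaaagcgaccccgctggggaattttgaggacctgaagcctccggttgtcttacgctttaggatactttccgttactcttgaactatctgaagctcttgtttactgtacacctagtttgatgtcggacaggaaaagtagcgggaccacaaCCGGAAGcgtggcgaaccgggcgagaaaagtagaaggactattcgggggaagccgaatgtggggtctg
Ndufaf4: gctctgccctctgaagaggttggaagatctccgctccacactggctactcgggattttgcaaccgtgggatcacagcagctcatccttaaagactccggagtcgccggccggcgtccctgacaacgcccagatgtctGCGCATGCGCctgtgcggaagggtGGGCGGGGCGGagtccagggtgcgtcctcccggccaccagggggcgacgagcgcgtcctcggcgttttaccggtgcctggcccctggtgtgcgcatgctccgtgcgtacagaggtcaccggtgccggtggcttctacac
Uqcrfs1: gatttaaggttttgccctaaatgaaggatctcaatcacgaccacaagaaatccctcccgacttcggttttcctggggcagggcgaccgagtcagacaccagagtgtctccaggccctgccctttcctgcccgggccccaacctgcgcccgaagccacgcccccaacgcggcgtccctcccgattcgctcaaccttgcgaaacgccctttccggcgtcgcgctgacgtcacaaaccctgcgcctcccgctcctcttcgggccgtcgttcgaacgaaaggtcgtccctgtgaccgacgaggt
The Ndufaf1 window held a GC box 223 bases before the start site and an ETS match 18 bases before it. The Ndufaf4 window held an NRF1 match on each strand, overlapping by all but 1 base and starting 113 and 112 bases before the start site, and a pair of GC boxes sharing 1 base. The Uqcrfs1 window held none of the 4. Among the 73 members with a window in the reference table, 20 (27.4%) held the NRF1 motif, against 7.03% of 27025 genes, 17 (23.3%) the ETS motif against 9.93%, 11 (15.1%) the YY1 motif against 3.19%, and 33 (45.2%) the GC box against 38.2%. By complex, NRF1 matches were found for 8 of 33 complex I subunit genes, 2 of 7 assembly factors, 2 of 5 complex III genes, 1 of 13 complex IV genes and 7 of 15 complex V genes. YY1 matches were found for 7 complex I, 1 assembly, 0 complex III, 0 complex IV and 3 complex V genes. Genes of a family are not independent, and a match is a description of the letters only. Members without a window included Atp5a1, Atp5mpl, Atp5s, Cox4i1, Cox4i2, Cox5b-ps, Cox6a2, Cox6c, Cox8c, Ndufa2, Ndufa4l2, Ndufaf6, Ndufb1-ps, Ndufb9, Ndufs1, Uqcrb, Uqcrc2 and Uqcrq.

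The first comparison asked which members differed between four-cell NT embryos cultured without and with α-amanitin. Only the complex I assembly factors Ndufaf1 and Ndufaf4 passed the test, both higher without α-amanitin, and no subunit gene of complexes I, III, IV or V did. Ndufaf1, which helps to build the membrane arm, had 66.4, 79.7 and 66.2 FPKM in S15, S17 and S7 without α-amanitin, and 26.2, 14.1 and 9.64 in S16, S18 and S8 with it. The groups did not overlap, and the difference was 2.13 ± 0.37 (SE; limma, adjusted p = 0.0124). Ndufaf4, which acts on the part of complex I that reduces ubiquinone, had 39.3, 46.9 and 28.9 FPKM without and 15.6, 9.47 and 9.03 with α-amanitin. Again the groups did not overlap, with a difference of 1.68 ± 0.35 (adjusted p = 0.0196). Leaving out S15, S17 or S7 left 0 members higher, and leaving out S18 left 1, while without S16 3 members were lower. The share of all genes called higher was 0.651% to 1.46% without S15, S17 or S7 and 5.41% without S18, and 1.39% were lower without S16.

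Across all genes tested in four-cell NT embryos, 11.1% were called higher and 1.13% lower without α-amanitin, and the median change was 0.37. Against this, 2 of 85 members were higher and 0 were lower, with 11 members at an unadjusted p under 0.05 in either direction (28.9% of all genes). With a 4-fold criterion added 1 member, Ndufaf1, was higher, against 6.2% of all genes. The members' median change was −0.22, which ran from −0.35 to 0.02 when single libraries were left out and turned positive without S8. In the fit of all 6 libraries 72 of the 85 lay below the median of all genes. With the libraries scaled by the median of ratios, the all-gene median became 0.13, the members' median −0.51, and 76 of 85 lay below the all-gene median. On that scale 2 members were called higher and 2 lower, against 7.69% and 2.26% of all genes. Subunit genes had medians of −0.15 in complex I (37 tested), −0.15 in complex III (8), −0.21 in complex IV (16) and −0.36 in complex V (16), while the 8 assembly factors had 0.56. All 16 complex V genes lay below the all-gene median, on both scales.

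Non-overlapping groups were found for 6 members higher without α-amanitin, against 27.6% of all genes, and for 12 members lower, against 7.56%. The 12 were Ndufa1, Ndufs8, Ndufb11, Uqcr11, Cox6a1, Cox7a2, Atp5g1, Atp5o, Atp5c1, Atp5b, Atp5j and Atp5s. Ndufa1 had 569, 398 and 417 FPKM without and 605, 972 and 882 with α-amanitin, a difference of −0.82 ± 0.25 (adjusted p = 0.0626). Ndufs8, an iron-sulphur subunit of complex I, had 312, 305 and 326 FPKM without and 444, 485 and 558 with α-amanitin, a difference of −0.65 ± 0.19 (adjusted p = 0.0575). Neither passed the test on deposited FPKM, and both passed it with the median of ratios, at −1.13 (adjusted p = 0.0361) and −0.96 (adjusted p = 0.0304). Ndufa5, a complex I subunit, had the largest positive difference of the subunit genes, with 166, 159 and 200 FPKM without and 79.4, 59.7 and 127 with α-amanitin (1.04 ± 0.30, adjusted p = 0.0570).

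**Figure D1:**
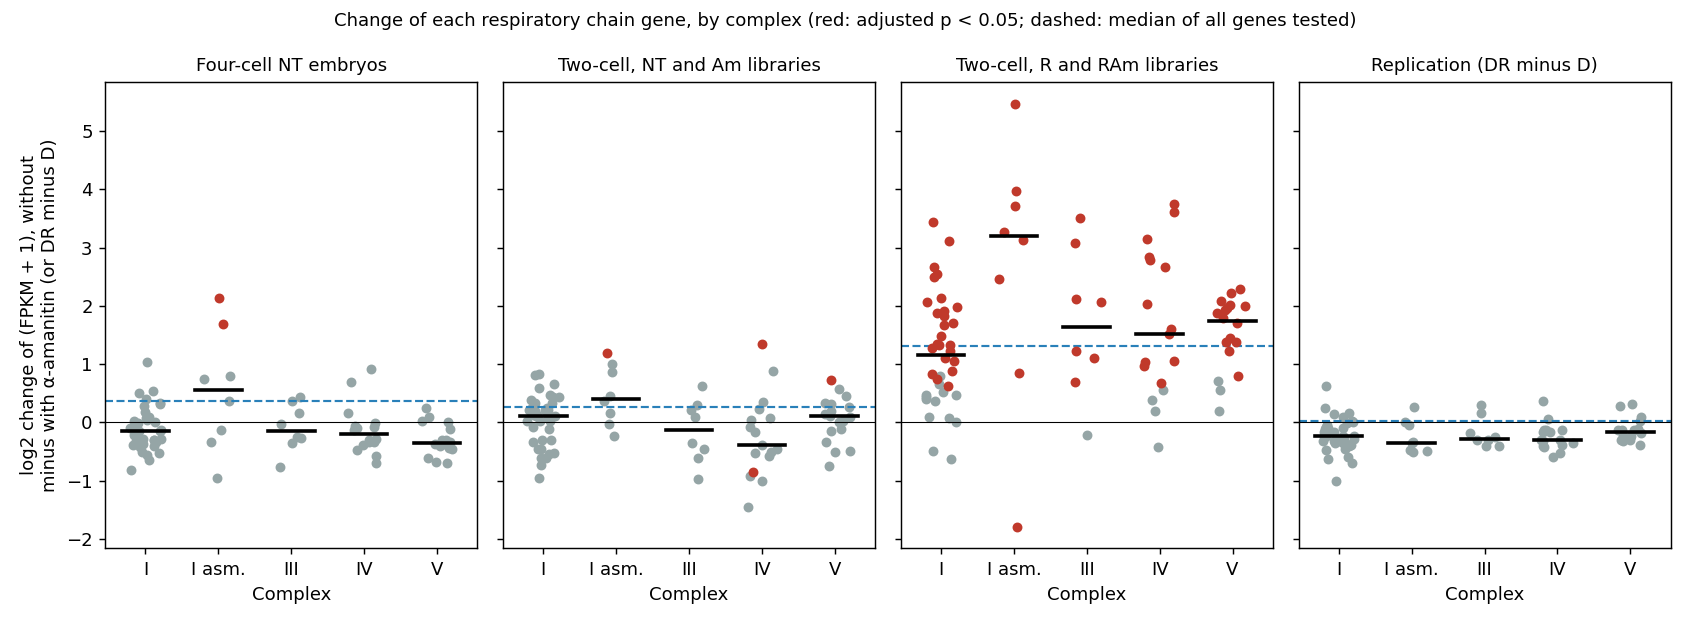
Each point is the log2 change of one member, on log2(FPKM + 1), without minus with α-amanitin (DR minus D in the right panel), grouped on the horizontal axis by complex (asm., assembly factors). Red points have an adjusted p under 0.05, black bars are medians of the complex and the dashed line is the median of all genes tested. In the four-cell panel 2 assembly factors are red, in the NT and Am panel 4 members, in the R and RAm panel 68, and in the replication panel 0.

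Mitochondrially encoded subunits moved with the same groups and are given beside the nuclear ones. Mitochondrial genes took 5.76% to 6.09% of reads without and 11.4% to 19.0% with α-amanitin in four-cell NT embryos. Of 13 such subunits, 8 could be tested, and 7 of these were lower without α-amanitin, with a median change of −1.21. The untested mt-Atp6, mt-Atp8, mt-Co2, mt-Co3 and mt-Nd4l had at most 2.96 FPKM there, but at least 1454 in every replication library. The four-cell share of mitochondrial reads may thus be incomplete, and the reason was not tested. mt-Cytb, the catalytic subunit of complex III, had 14581, 17961 and 20306 FPKM without and 41371, 39826 and 65666 with α-amanitin, a difference of −1.45 ± 0.22 (adjusted p = 0.00824). Since FPKM are relative to all counted fragments, this share enters the values of the nuclear genes, and its part in the members' changes was not tested. Of 10 oocyte and early embryo markers, Dppa3 made up nearly the whole sum, with 8677 to 9869.9 FPKM without and 12108 to 15928 with α-amanitin. The 9 others summed to 65.5 to 70.2 and 84.8 to 247 FPKM. Myoblast markers summed to 5.75 to 10.3 and 7.05 to 112, and cumulus cell markers to 0 and to at most 0.387. The part of these in the result was not tested.

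The same question was put to two-cell NT embryos, with all 12 libraries in 1 fit. Of 89 members, 18 were higher without α-amanitin and 0 were lower, while 38.9% of all genes were higher and 8.51% lower. At an unadjusted p under 0.05 there were 24 members, beside 56.7% of all genes, and with a 4-fold criterion 7 were higher, beside 11.1%. The members' median change was 0.68, beside 0.67 for all genes, and 46 of the 89 lay above the all-gene median. The 18 comprised 6 subunit genes of complex I (Ndufa6, Ndufa9, Ndufb2, Ndufb10, Ndufs1 and Ndufs7), 4 assembly factors (Ndufaf1, Ndufaf3, Ndufaf6 and Ndufaf7), Uqcrfs1 of complex III, 3 genes of complex IV (Cox7a1, Cox8c and Cox7a2l) and 4 of complex V (Atp5a1, Atp5c1, Atp5k and Atp5pb). The largest changes were 3.24 ± 0.81 for Ndufaf1 (adjusted p = 0.00711), 2.48 ± 0.59 for Cox7a1 (adjusted p = 0.00526), 2.28 ± 0.53 for Ndufaf6 (adjusted p = 0.00490) and 2.21 ± 0.68 for Ndufaf7 (adjusted p = 0.0185). Groups of 6 did not overlap for 3 members, Atp5a1, Ndufaf3 and Cox7a1, each higher without α-amanitin (16.3% of all genes), and for 0 that were lower (2.95%). Atp5a1, the α subunit of the catalytic head of complex V, ranged from 47.3 to 65.5 FPKM (median 57.5) without and from 9.79 to 47.1 (median 27.6) with α-amanitin, a difference of 1.28 ± 0.43 (adjusted p = 0.0266).

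The pooled count rests on both sets of libraries, and it moved with single libraries and with the scale. Leaving out NT1, NT2, RAm1, RAm2, RAm3 or R3 gave 9, 11, 8, 8, 9 and 11 members higher, where 30.1% to 34.2% of all genes were. With the set of libraries as a covariate 35 members were higher, and 44.6% of all genes. With the median of ratios 8 members were higher and 10 lower, where 21.9% and 14.2% of all genes were, and with ERCC scaling 82 and 0, where 71.4% and 1.63% were. The sets were therefore also compared one by one, as an alternative added after the data had been seen.

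In the NT and Am libraries, on deposited FPKM, 3 members were called higher without α-amanitin, against 12.7% of all genes, and 1 was called lower, against 4.18%. The count depended on the scale, with 28 higher and 0 lower with ERCC scaling, against 31.5% and 0.77%, and 0 higher and 8 lower with the median of ratios, against 7.42% and 6.82%. Cox7a1, the muscle and heart isoform of a complex IV subunit, had 22.6, 17.97 and 24.2 FPKM in NT1 to NT3 and 12.3, 5.61 and 6.95 in Am1 to Am3, a difference of 1.34 ± 0.32 (adjusted p = 0.0290). Ndufaf3, the partner of Ndufaf4 in complex I assembly, had 11.6, 12.8 and 10.1 against 3.95, 4.84 and 4.54, a difference of 1.19 ± 0.25 (adjusted p = 0.0208). Atp5k, a membrane subunit of complex V, had 181, 206 and 232 against 144, 123 and 107 (0.73 ± 0.20, adjusted p = 0.0416). Higher with α-amanitin was Cox6a1, with 296, 289 and 342 FPKM in NT1 to NT3 and 544, 557 and 579 in Am1 to Am3, a difference of −0.86 ± 0.16 (adjusted p = 0.0141). The groups of these 4 genes did not overlap. Over all members, groups did not overlap for 9 that were higher and 8 that were lower without α-amanitin, against 26.8% and 11.2% of all genes.

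The median change of the members in the NT and Am libraries was 0.09, beside 0.26 for all genes, with 64 of 89 below the all-gene median. Leaving out single libraries gave members' medians of −0.13, without NT3, to 0.22, without NT2. Complex IV had the lowest median, −0.38, against 0.11 for complex I, −0.13 for complex III, 0.10 for complex V and 0.41 for the assembly factors. The calls here also rest on single libraries. Without Am1 only 1 member was higher and 0 lower, without Am2 or Am3 0 and 0, without NT1 0 and 3, without NT2 0 were higher, and without NT3 12 were lower. In the same fits 4.13% to 15.6% of all genes were higher and 0.714% to 5.81% lower, the most in both directions without NT3. Ndufaf1 had 42.2, 56.3 and 11.9 FPKM in NT1 to NT3 and 20.2, 21.1 and 7.49 in Am1 to Am3. The groups overlapped (1.00 ± 0.60, adjusted p = 0.284), since NT3 lay below Am1 and Am2. Ndufaf4 had 18.5, 18.3 and 28.7 against 15.2, 19.1 and 15.2 FPKM, and was not called either (0.36 ± 0.26, adjusted p = 0.371).

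In the R and RAm libraries, on deposited FPKM, 67 of 89 members were called higher without α-amanitin, against 60.5% of all genes, and 1 was called lower, against 16.4%. With the median of ratios 33 were higher, against 42.5% of all genes, and 14 lower, against 24.9%. The median change of the members was 1.38, beside 1.31 for all genes, and 49 of 89 lay above the all-gene median, so that the members lay close to the genes as a whole. Higher were 25 of 38 complex I subunit genes, 7 of 8 assembly factors, 7 of 8 complex III genes, 13 of 17 complex IV genes and 15 of 18 complex V genes. The medians were 1.16, 3.19, 1.64, 1.51 and 1.75 in the same order. Groups did not overlap for 66 higher members and 1 lower member, against 61.5% and 17% of all genes. Without R3 55 members were higher, without RAm2 70, and 4 were lower without RAm3, where 45.4% and 64% of all genes were higher and 12.3% lower in the same order. A set of 21 members was called in neither direction, among them Ndufa1 (0.00 ± 0.38), Cox8a (0.56 ± 0.41), Uqcr11 (−0.22 ± 0.27) and Cox6b2 (−0.42 ± 0.63).

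Of the 4 largest changes in these libraries, 3 fell on assembly factors and 1 on Cox8c, given with the isoforms. Ndufaf1 had 36.0, 49.0 and 60.6 FPKM in R1 to R3, and 0, 0.302 and 0 in RAm1 to RAm3, where at most 4 reads were counted. The difference of 5.47 ± 0.28 (adjusted p = 8.09e-06) was the largest of any member. Ndufaf7, a methyltransferase needed to build complex I, had 22.6, 21.9 and 37.7 FPKM against 0.0302, 1.07 and 1.59, a difference of 3.96 ± 0.41 (adjusted p = 9.24e-05). Ndufaf6 had 22.2, 15.2 and 11.999 against 0, 1.19 and 0 (3.71 ± 0.40, adjusted p = 0.000113). Ndufaf8 had 55.5, 34.1 and 41.5 against 2.79, 3.12 and 5.15 (3.26 ± 0.29, adjusted p = 5.20e-05). Its partner Ndufaf5, which modifies the subunit Ndufs7, had 22.03, 30.2 and 25.7 against 0.680, 9.05 and 0.720 (3.12 ± 0.67, adjusted p = 0.00346). Groups did not overlap for any of these 5.

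Ndufaf4 went the other way. It had 19.2, 28.6 and 34.2 FPKM in R1 to R3 and 92.2, 95.8 and 96.8 in RAm1 to RAm3, a difference of −1.80 ± 0.25 (adjusted p = 0.000359). It was the only member called lower in this set on deposited FPKM. With the median of ratios it was lower as well (−2.98, adjusted p = 7.74e-05), together with 13 other members, while with ERCC scaling it had a difference of 0.14 and was not called (adjusted p = 0.683). In RAm1 to RAm3 it thus stood at 92.2 to 96.8 FPKM beside Ndufaf1 at 0 to 0.302. In four-cell NT embryos both had been called higher without α-amanitin, on both scales available there.

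**Figure D2:**
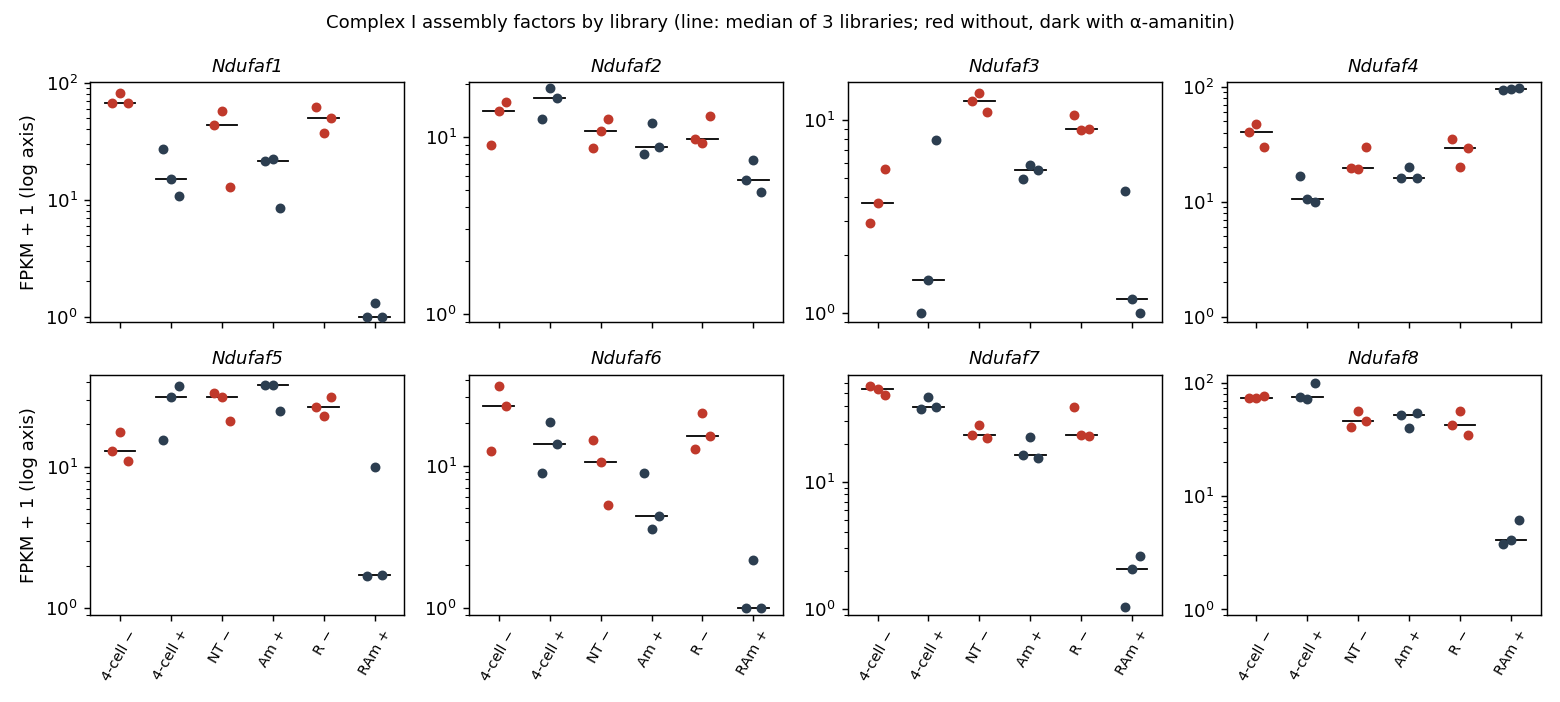
FPKM + 1, on a log axis, of the 8 complex I assembly factors in each four-cell and two-cell library. Red points are libraries without and dark points libraries with α-amanitin, and lines are medians of 3 libraries. In the RAm libraries Ndufaf1 lies at 0 to 0.302 FPKM and Ndufaf4 at 92.2 to 96.8, above every other group in its panel.

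Among the subunit genes of complex I in the R and RAm libraries, Ndufa9 had 39.4, 51.7 and 50.1 FPKM without and 1.74, 6.87 and 3.03 with α-amanitin (3.43 ± 0.39, adjusted p = 0.000149). Ndufs7, an iron-sulphur subunit beside the ubiquinone site, had 32.6, 36.7 and 38.5 against 4.88, 1.98 and 3.38 (3.12 ± 0.29, adjusted p = 6.31e-05). The abundant Ndufa1 differed from both, with 191, 188 and 274 FPKM without and 251, 326 and 118 with α-amanitin, so that the groups overlapped. The core subunits Ndufv1 and Ndufs1 were called higher, with differences of 1.33 and 1.48.

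In complex III, Uqcrfs1 had 76.7, 68.3 and 88.9 FPKM in R1 to R3 and 5.59, 7.81 and 4.72 in RAm1 to RAm3, a difference of 3.50 ± 0.24 (adjusted p = 2.16e-05). Uqcr10, one of the most abundant members, had 430, 518 and 572 against 53.8, 95.7 and 38.6 (3.08 ± 0.33, adjusted p = 0.000113). The small subunit Uqcr11 was the exception in this complex, with 129, 98.1 and 143 FPKM against 161, 176 and 102. In the NT and Am libraries Uqcr10 had 672, 618 and 781 against 630, 530 and 520 FPKM (0.30 ± 0.17, adjusted p = 0.268), and in four-cell NT embryos 824, 714 and 922 against 813, 925 and 1266.

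In complex V, 3 subunits of the F1 head were compared between R and RAm libraries. Atp5a1 had 47.3, 52.1 and 57.5 FPKM in R1 to R3 and 10.1, 18.9 and 9.79 in RAm1 to RAm3 (1.99 ± 0.29, adjusted p = 0.000451). Atp5b had 102, 103 and 97.4 against 54.0, 61.6 and 58.5 (0.79 ± 0.18, adjusted p = 0.00410), and its sign turned with the median of ratios (−0.41, adjusted p = 0.0669). Atp5c1 had 167, 147 and 157 against 46.0, 37.7 and 38.1 (1.93 ± 0.19, adjusted p = 6.87e-05). Summed over its genes, complex V had 1482 ± 134 FPKM (SD, n = 3) in R and 490 ± 127 in RAm libraries, and 1938 ± 352 in NT and 1804 ± 115 in Am libraries. These complex V sums of R (1040 to 1175) and RAm (841 to 1223) overlapped with the median of ratios over the 12 libraries, and with ERCC scaling they lay at 2561 to 3580 and 185 to 392.4. All members together summed to 7399 ± 675 in R, 3438 ± 950 in RAm, 9866 ± 2159 in NT and 10339 ± 701 in Am libraries. The direction of these sums turned with the scale. R had a lower mean than RAm with the median of ratios (5511 ± 349 against 6799 ± 1612), and with ERCC scaling NT a higher one than Am (12532 ± 2489 against 7536 ± 870). In four-cell NT embryos they summed to 15487 ± 1551 without and 18951 ± 4982 with α-amanitin, and the assembly factors alone to 287 ± 29.1 and 208 ± 20.3. The assembly factor sums overlapped with the median of ratios (257 ± 30.7 and 233 ± 41.7).

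**Figure D3:**
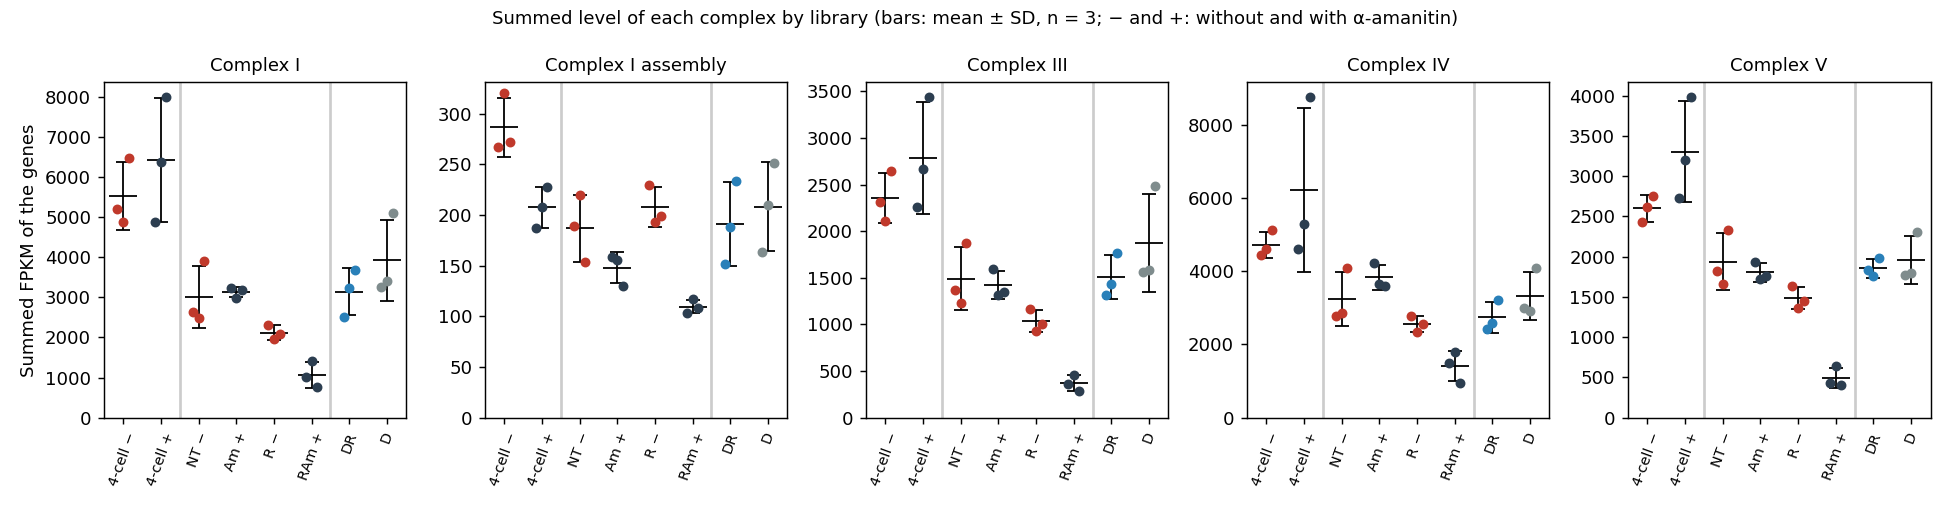
Summed FPKM of the members of each complex in each library, with the mean and SD of 3 libraries, for four-cell and two-cell NT embryos without (−, red) and with (+, dark) α-amanitin and for groups DR and D. For complex V the R libraries have a mean of 1482 and the RAm libraries of 490, while NT and Am libraries have means of 1938 and 1804. All values are on deposited FPKM, and with the median of ratios the complex V sums of R and RAm overlap.

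Whether the effect of α-amanitin differed between the sets was tested with an interaction term, an alternative added after the data had been seen. The effect was larger in the R and RAm libraries for 53 of 89 members and smaller for 1, Ndufaf4, beside 36% and 8.46% of all genes. On the other scales the counts were 21 and 2 with the median of ratios, where 19.8% and 16.7% of all genes were called, and 75 and 0 with ERCC scaling, where 50.5% and 2.72% were. Complex by complex, 16 of 38 complex I subunit genes, 5 of 8 assembly factors, 6 of 8 complex III genes, 13 of 17 complex IV genes and 13 of 18 complex V genes had a larger effect on deposited FPKM. With the median of ratios these counts were 7, 5, 3, 4 and 2, and with ERCC scaling 27, 7, 8, 16 and 17. For Ndufaf1 the effect was larger by 4.47 ± 0.73 (adjusted p = 0.000431), for Uqcrfs1 by 2.89 ± 0.39 (adjusted p = 0.000128) and for Uqcrc1, a core protein of complex III, by 3.09 ± 0.46 (adjusted p = 0.000222). Uqcrc1 had 16.3, 7.67 and 9.02 FPKM in NT1 to NT3 against 22.02, 19.6 and 22.9 in Am1 to Am3, but 19.8, 16.7 and 15.7 in R1 to R3 against 5.66, 2.41 and 2.30 in RAm1 to RAm3. For Ndufaf4 the difference between the effects was −2.16 ± 0.36 (adjusted p = 0.000532). It was −3.32 with the median of ratios (adjusted p = 7.32e-05) and −0.94 with ERCC scaling (adjusted p = 0.115). The spike-in share and the share of nuclear copies of mitochondrial genes moved with the same libraries. Of 10 oocyte and early embryo markers, Dppa3 had 8379 to 12248 FPKM in NT, 6623 to 7576 in Am, 7129.6 to 8944 in R and 689 to 1298 in RAm libraries. The 9 others summed to 98.9 to 117 FPKM in NT, 313 to 493 in Am, 178 to 302 in R and 904 to 2282 in RAm libraries, and Oosp1 alone made up 55.4% of the sum in Am and 74.4% in RAm. All 9 had a higher mean in Am than in NT, and 8 a higher mean in RAm than in R, the exception being Zp3 with means of 65.4 FPKM in R and 21.3 in RAm. Myoblast markers summed to 17.3 to 236 FPKM without and 29.4 to 70.0 with α-amanitin. Their part in the members' changes was not tested.

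The scale decided the direction of the members as a group in two-cell NT embryos, whose pooled median was 0.68 on deposited FPKM, −0.089 with the median of ratios and 1.99 with ERCC scaling, beside 0.67, 0.24 and 1.49 for all genes. In the R and RAm libraries the all-gene median was 1.31 on deposited FPKM, 0.56 with the median of ratios and 2.52 with ERCC scaling, and the members' median was 1.38, 0.31 and 3.26. Relative to all genes, the members thus lay at 0.08, −0.26 and 0.75. In the NT and Am libraries the all-gene median was 0.26, 0.03 and 0.91, the members' 0.09, −0.21 and 0.91, and the distance −0.17, −0.24 and 0.00. With ERCC scaling 87 members were higher and 0 lower in R and RAm libraries, against 80.5% and 5.45% of all genes. The assembly factors lay above the all-gene median on all 3 scales in both sets, by 1.89, 1.61 and 2.15 in R and RAm libraries and by 0.14, 0.09 and 0.29 in NT and Am libraries. Complex IV lay below it on all 3 scales in the NT and Am libraries, by −0.65, −0.72 and −0.46.

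**Figure D4:**
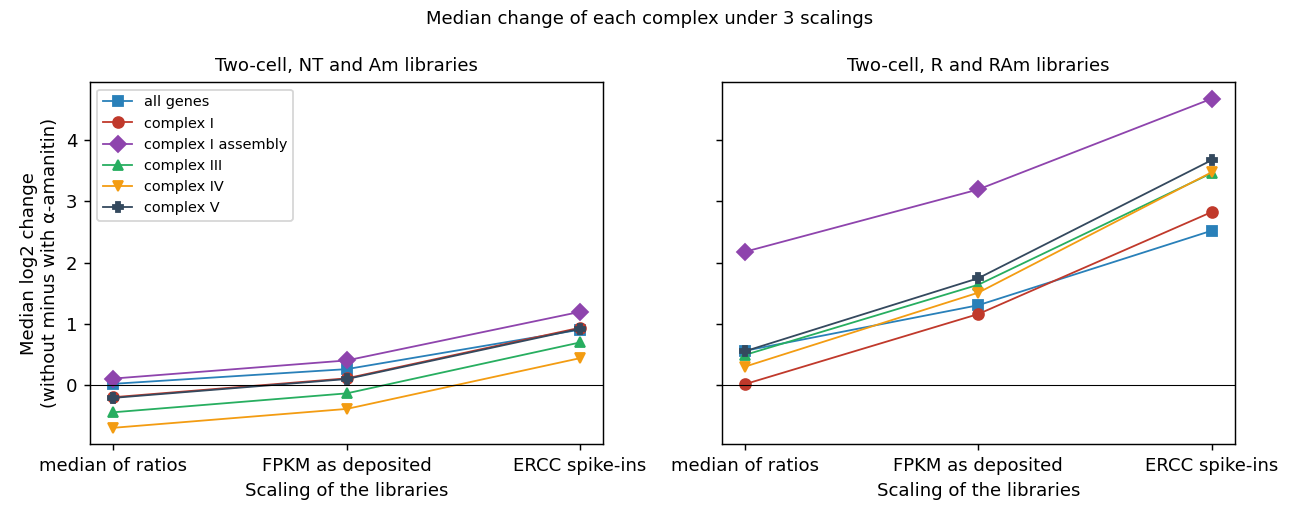
Median log2 change, without minus with α-amanitin, of all genes and of each complex in both sets of two-cell libraries, with the libraries scaled by the median of ratios, as deposited and to ERCC spike-ins. The median of all genes in the R and RAm libraries runs from 0.56 to 2.52, and the assembly factors lie above it on each scale.

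Isoforms of one subunit were compared as shares within a library, where the scaling cancels. Cox7a1 made up 4.68% of Cox7a1 and Cox7a2 without and 1.47% with α-amanitin over the two-cell libraries (exact permutation test, two-sided, 6 against 6, p = 0.00433, smallest possible 0.00216, adjusted over 8 isoform sets 0.0346). Within sets the share was 3.86% ± 1.05 (SD, n = 3) in NT and 1.87% ± 0.65 in Am, and 5.502% ± 1.65 in R and 1.08% ± 1.87 in RAm libraries. In four-cell NT embryos it was 3.87% ± 1.92 without and 3.59% ± 1.07 with α-amanitin, and in the replication experiment 7.88% ± 5.51 in DR and 6.36% ± 2.93 in D. Cox8c, an isoform known from testis, made up 3.02% of the Cox8 genes without and 1.06% with α-amanitin in two-cell NT embryos (exact permutation p = 0.0152, adjusted 0.0606), and the within-set shares were 2.12% and 1.94% in NT and Am but 3.93% and 0.185% in R and RAm. Cox8a, the ubiquitous form, had 580, 630 and 648 FPKM in R1 to R3 and 612, 584 and 204 in RAm1 to RAm3, so the groups of Cox8a overlapped, whereas Cox8c had 26.6, 30.2 and 18.9 against 1.85, 1.48 and 0.

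Cox7b2, another isoform known from testis, had no read in RAm1 to RAm3 and 4.82, 7.55 and 5.70 FPKM in R1 to R3. Against a floor of 3 reads per library the level without α-amanitin was at least 9.01-fold higher on deposited FPKM. This bound would be lower with the median of ratios and higher with ERCC scaling. Cox4i2, the isoform known from lung and hypoxia, had 7.96, 2.54 and 2.68 FPKM in NT1 to NT3 and 14.0, 7.35 and 18.0 in Am1 to Am3, which overlapped and were not called (adjusted p = 0.0680 by limma). It had 9.57, 13.1 and 9.01 in R1 to R3 and 1.88, 0.431 and 0 in RAm1 to RAm3, without overlap. Its effect was larger in the R and RAm libraries by 4.28 ± 0.66 (adjusted p = 0.000288). Of the 8 isoform sets, Cox4i2, Cox6a2, Cox6b2, Cox7b2, Ndufa4l2 and Atp5g1 showed exact permutation p-values of 0.162 to 0.671 over the two-cell libraries. These tests pooled both sets, so shares that moved in opposite directions could cancel, as those of Cox4i2, Cox7b2 and Atp5g1 did. The mean share of Cox4i2 was 1.44% in NT and 2.82% in Am, but 4.44% in R and 0.938% in RAm libraries. Large p-values here do not show that shares were alike within a set.

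The c subunit of complex V, the ring that turns with the proton flow, is made from Atp5g1, Atp5g2 and Atp5g3, which encode the same mature protein. Atp5g1 made up 22.4% ± 1.36 of the 3 without and 35.9% ± 4.63 with α-amanitin in four-cell NT embryos, with no overlap (20.9% to 23.5% and 31.9% to 41.0%). With 3 libraries against 3 the exact permutation p was 0.1, the smallest possible. The NT and Am libraries had shares of 27.6% ± 4.44 and 44.3% ± 3.13, and the R and RAm libraries of 35.6% ± 4.22 and 23.6% ± 4.58, the opposite order. The effect of α-amanitin on Atp5g1 itself differed between the sets by 2.84 ± 0.32 (adjusted p = 3.30e-05).

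**Figure D5:**
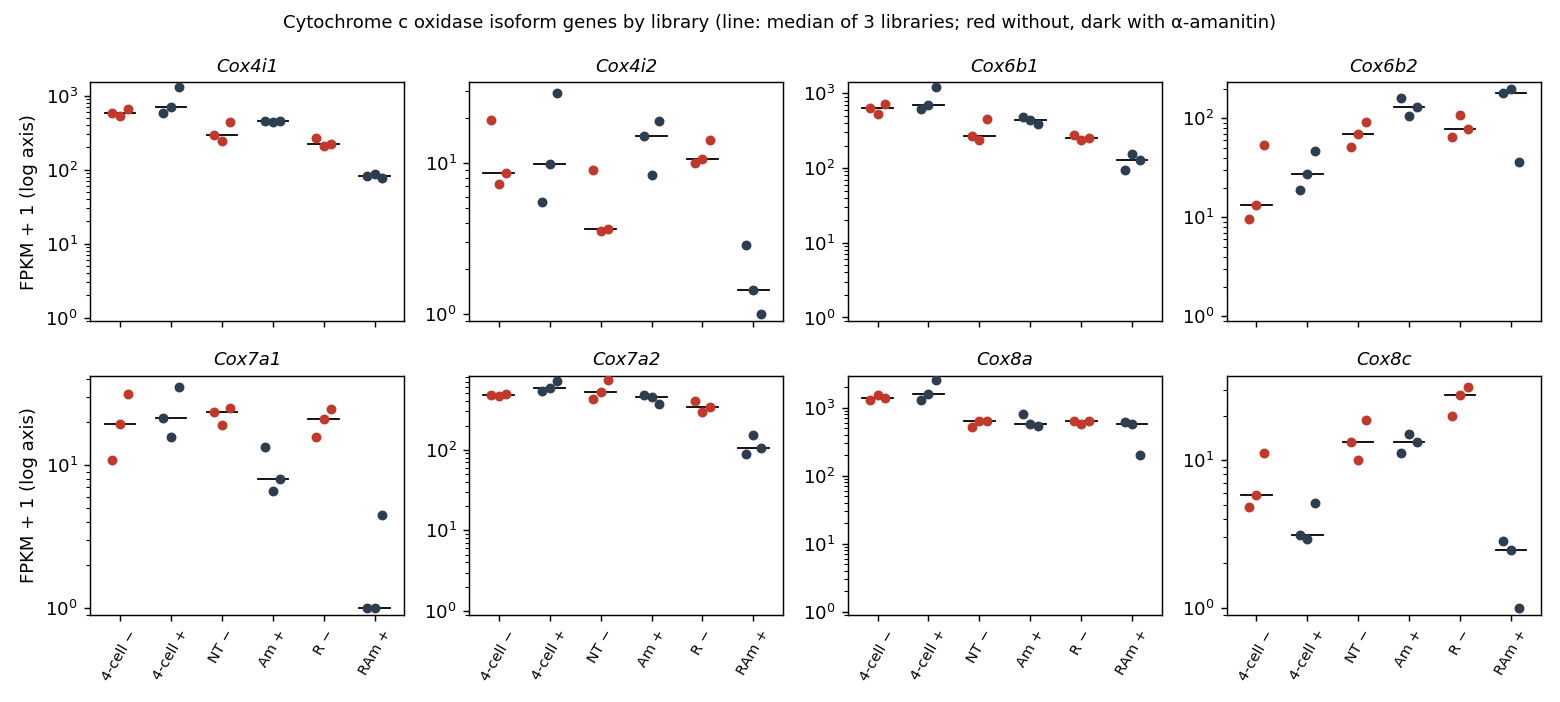
FPKM + 1, on a log axis, of 8 complex IV isoform genes in each four-cell and two-cell library, red without and dark with α-amanitin, with lines at medians of 3 libraries. Cox8a lies between 204 and 2586 FPKM in every library, whereas Cox8c falls to 0 to 1.85 FPKM and Cox7a1 to 0 to 3.48 in the RAm libraries.

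The orders of the members' changes were set side by side over members tested in both. Spearman's rho across members was 0.43 between four-cell NT embryos and the NT and Am libraries (82 members), 0.14 between four-cell NT embryos and the R and RAm libraries (82) and 0.28 between the sets of two-cell libraries (89). These are descriptions across genes, which are not independent replicates and share expression level and length between tables.

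In the replication experiment, groups DR and D were compared without α-amanitin in either. 0 of 85 members and 0% of all genes were called by limma, and limma-voom on recovered reads called 0 members as well. At an unadjusted p under 0.05 there were 2 members, Ndufa5 among them, and 897 genes in all (6.16%). Ndufa5 had 38.1, 67.7 and 59.9 against 80.1, 91.3 and 175 (−1.004 ± 0.36, adjusted p = 0.788). Groups did not overlap for 1 member higher in DR, against 8.21% of all genes, and those of Ndufa5, Atp5g3, Cox6a1 and Ndufb9 did not overlap and were lower in DR, against 3.99%. The members' median change was −0.24, beside 0.02 for all genes, and 70 of 85 lay below the all-gene median. With ERCC scaling both medians fell, to −1.85 and −1.41. Ndufaf1 had 35.0, 44.2 and 48.9 FPKM in DR and 34.5, 39.5 and 54.6 in D libraries (0.01 ± 0.26). All members summed to 9441 ± 1341 FPKM in DR and 11291 ± 2529 in D, with the highest sum in D5, and the spike-in share ran from 0.0181% to 0.776% with a wide spread inside each group. Dppa3 had 3330.4 to 3976 FPKM in DR and 4539 to 5696 in D libraries, the 9 other oocyte and early embryo markers summed to 41.8 to 79.2 and 39.3 to 58.7, and myoblast markers summed to 8.78 to 165 over both groups, and the part of these in the values was not tested.

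Neighbouring gene groups were counted in the same fits, on deposited FPKM unless another scale is named. For comparison, all genes were called higher in 11.1% of cases in four-cell NT embryos, 38.9% in the pooled two-cell libraries, 12.7% in NT and Am and 60.5% in R and RAm libraries. With the median of ratios these shares were 7.69%, 21.9%, 7.42% and 42.5%. With ERCC scaling they were 71.4%, 31.5% and 80.5% in the two-cell comparisons. Called lower were 1.13%, 8.51%, 4.18% and 16.4%, and with the median of ratios 2.26%, 14.2%, 6.82% and 24.9%. Succinate dehydrogenase, complex II, had 0 of 4 genes called in four-cell NT embryos (0 at an unadjusted p under 0.05 by limma), 1 higher in the pooled two-cell libraries, 0 in NT and Am and 2 higher in R and RAm libraries. With the median of ratios the pooled count became 0 higher and 1 lower, and with ERCC scaling 3 higher. The electron carrier genes (Cyc1, Cycs, Etfa, Etfb and Etfdh) had 0 of 5 called in four-cell NT embryos (0 unadjusted), 0 of 5 in the pooled two-cell libraries (1 unadjusted) and in the NT and Am libraries (0 unadjusted), and 4 of 4 higher in the R and RAm libraries. With ERCC scaling 5 of 5 were higher in the pooled libraries, and with the median of ratios 1 of 4 in the R and RAm libraries.

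Of assembly factors outside the name rule, 3 of 35 were higher in four-cell NT embryos: Taco1 (2.47), a translation activator for complex IV, Coa4 (1.94), a complex IV factor, and Tmem126b (1.80), which belongs to the same assembly complex as Ndufaf1. The 32 others, Ecsit and Acad9 among them, were not called. In two-cell NT embryos 18 of 38 were higher in the pooled fit, 2 of 33 in NT and Am libraries, and 25 of 33 higher with 1 lower in R and RAm libraries. The median of ratios gave 11, 2 and 14 higher in these comparisons, beside 21.9%, 7.42% and 42.5% of all genes. It gave 1, 0 and 1 lower, beside 14.2%, 6.82% and 24.9%. ERCC scaling gave 33, 16 and 32 higher, beside 71.4%, 31.5% and 80.5%. Of transcriptional regulators of mitochondrial genes, 1 of 10 was higher in four-cell NT embryos (Yy1, 1.61) and 0 with the median of ratios. In two-cell NT embryos 9 of 11 were higher in the pooled fit, 1 of 11 in NT and Am (Yy1, 1.44) and 10 of 11 in R and RAm libraries, with 6, 1 and 9 by the median of ratios, where 1 was lower in R and RAm, and 10, 7 and 11 by ERCC scaling. Mitochondrial ribosomal protein genes, which serve the translation of mitochondrially encoded subunits, had 3 of 77 higher in four-cell NT embryos (median change 0.19), 54 of 77 in the pooled two-cell fit (1.59), 13 of 77 in NT and Am (0.55) and 68 of 77 in R and RAm libraries (2.62). With the median of ratios 1, 32, 7 and 51 were higher, beside 7.69%, 21.9%, 7.42% and 42.5% of all genes. Lower were 0, 3, 2 and 5, and the four-cell median was −0.09, beside 0.13 for all genes. With ERCC scaling 76, 38 and 77 were higher in the two-cell comparisons, beside 71.4%, 31.5% and 80.5%. The respiratory chain members had medians of −0.22, 0.68, 0.09 and 1.38 on deposited FPKM in the same comparisons, and all genes 0.37, 0.67, 0.26 and 1.31. No gene of these lists was called in the replication experiment, nor any of 13 mitochondrially encoded subunits, by limma. At an unadjusted p under 0.05 there were 0 of 4, 1 of 5, 2 of 36, 2 of 11, 1 of 78 and 0 of 13 in the order given.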

How the data were processed

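RNA-seq of NT embryos was analysed from 3 tables that the authors deposited, in which each library has 1 column of FPKM per gene, 24 libraries in all. Per the labels, libraries were made with SMART-seq v4. The submitters' notes name Trimmomatic, Trim Galore, cutadapt, STAR and featureCounts with the mm10 genome. Versions and strand settings are not given in the sources used here. Columns were assigned by their names. Of the replication columns, 4 matched no sample and were left out, and the cross-species samples were not analysed here. The study itself normalised to ERCC spike-ins. The values are no counts, so the count-based tests planned as alternatives were not run. Reads per gene, whole only after rounding, were recovered from FPKM and gene length to give depth and a limma-voom fit.

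The filter kept genes that reached an FPKM of 1 in 3 or more libraries. Models were fitted to log2(FPKM + 1) with limma (version 3.58.1, R 4.3.3), letting the prior variance follow the mean level, and p-values were adjusted by Benjamini-Hochberg over all genes tested. Changes are without minus with α-amanitin, or DR minus D. Alternatives were a pseudocount of 0.1, no filter, a 4-fold criterion, median-of-ratios and ERCC scaling, leaving out each library, and a replicate block. The column set as covariate, each set alone, the interaction and limma-voom were added after the data had been seen. Isoform shares were compared with exact permutation tests, two-sided. In data simulated on the four-cell libraries, limma recovered 2 of 50 genes changed 2-fold, 25 of 50 changed 4-fold and 50 of 50 changed 8-fold. For the two-cell libraries the numbers were 13, 44 and 50, and for the replication libraries 3, 27 and 50. The simulated reads followed 1 mean level per gene over all libraries of a table, with a fixed spread. They held no difference between the sets of two-cell libraries, so the recovery need not hold for the pooled two-cell fit. Of the genes changed 16-fold, 50 of 50 were recovered in each table. False calls in the same simulations numbered 20, 10 and 34, among 10272, 16635 and 14917 genes. As a share of all calls, rather than of all genes, they lay above the adjusted p threshold, clearly so in the four-cell and replication simulations. Counting and pooling limits the precision of low genes, for which reads are given.

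The members and all lists (complex II, electron carriers, further assembly factors, regulators, mitochondrial ribosomal proteins, mitochondrially encoded subunits, and oocyte, myoblast and cumulus markers) were chosen with earlier results of these data known. Genes were named by a rule taking the 2 members of highest mean per complex, up to 4 of the largest called changes in each direction per α-amanitin comparison, core subunits, isoform pairs, and members without overlap in both α-amanitin comparisons. Genes outside it, such as Ndufs8, Ndufa5, Ndufaf3, Ndufaf5, Atp5k and those in lists of calls or of non-overlapping members, were named after their values were seen. The results of 1 member are not reported here. Promoters came from RefSeq (GRCm38.p6), with 73 members matched.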

Additional observations from a re-analysis of the deposited data

Results flagged for a closer look

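Single libraries stood far from the other 5 of their group for 11 values in two-cell NT embryos, judged by Dixon's criterion, which marks about 1 group in 20 by chance. Each group joins both sets of libraries, so a difference between sets can enter. The number of values judged is not given here, so the 11 cannot be set against that rate. Without α-amanitin, NT3 was the highest library for Cox4i1 (436 FPKM), Cox6b1 (449), Cox7b (473) and Cox8b (1.47), and for the summed members (12349.8 FPKM). NT1 was the highest for Atp5b (139) and Ndufa4l2 (0.234), R3 for Ndufaf7 (37.7) and R2 for Cox6a2 (0.451). With α-amanitin, RAm1 was the highest for Cox6a2 (4.36) and Ndufa4l2 (0.0483).

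The effect of α-amanitin differed between the sets of two-cell libraries by the interaction term for 22 of the members named by rule, given as the R and RAm effect minus the NT and Am effect in log2. Among complex I genes the differences were 1.63 for Ndufv1, 4.47 for Ndufaf1, −2.16 for Ndufaf4, 2.85 for Ndufaf6, 3.51 for Ndufaf7 and 3.29 for Ndufaf8. In complex III they were 2.79 for Uqcr10, 3.09 for Uqcrc1 and 2.89 for Uqcrfs1. In complex IV they were 2.03 for Cox4i1, 4.28 for Cox4i2, 2.59 for Cox5a, 1.53 for Cox6a1, 1.56 for Cox6b1, 2.28 for Cox7a1, 1.26 for Cox7a2, 3.80 for Cox7b2 and 3.70 for Cox8c. In complex V they were 1.43 for Atp5a1, 1.30 for Atp5b, 1.59 for Atp5c1 and 2.84 for Atp5g1. Of all genes, 36% had a larger effect in the R and RAm libraries and 8.46% a smaller one. The rule named some members for their large called changes, so their number cannot be set against these shares.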

How the results depend on the processing

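In four-cell NT embryos 1 member was higher instead of 2 with a 4-fold criterion (6.2% of all genes) and with no filter. With the median of ratios 2 were lower (2.26% of all genes). Leaving out single libraries gave 0 to 3 higher, 0 to 3 lower and medians of −0.35 to 0.02. In those fits 0.651% to 14.4% of all genes were higher and 0.0685% to 1.39% lower. In the pooled two-cell libraries 7 members were higher instead of 18 with a 4-fold criterion (11.1% of all genes) and 7 with no filter. The median of ratios gave 8 higher (21.9%), 10 lower (14.2%) and a median of −0.089 (all genes 0.24). ERCC scaling gave 82 higher (71.4%) and a median of 1.99 (all genes 1.49), and the set as covariate 35 (44.6%). Without single libraries 8 to 27 were higher and 0 to 1 lower, with medians of 0.47 to 0.92. Of all genes, 30.1% to 44.2% were higher and 6.12% to 10.2% lower in those fits. In NT and Am libraries the median of ratios gave 0 higher, 8 lower and a median of −0.21. All genes had 7.42%, 6.82% and 0.03. ERCC scaling gave 28, 0 and 0.91, beside 31.5%, 0.77% and 0.91 for all genes. Leaving out libraries gave 0 to 4, 0 to 12 and −0.13 to 0.22. Of all genes, 4.13% to 15.6% were then higher and 0.714% to 5.81% lower. In R and RAm libraries the median of ratios gave 33, 14 and 0.31, beside 42.5%, 24.9% and 0.56 for all genes. ERCC scaling gave 87, 0 and 3.26, beside 80.5%, 5.45% and 2.52. Leaving out libraries gave 55 to 70, 1 to 4 and 1.21 to 1.64. Of all genes, 45.4% to 64% were then higher and 11.9% to 18.4% lower. In the replication experiment the median was −1.85 with ERCC scaling, and leaving out libraries gave 0 calls and medians of −0.37 to −0.06. The causes were not tested.

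Many members turned sign with the scale, which rescales all genes of a library alike. Changes near 0 turn first, and the share of all genes that turned is not given here. The median of ratios turned 13 of 85 in four-cell NT embryos, 39 of 89 in the pooled two-cell libraries, 29 in NT and Am, 31 in R and RAm and 4 of 85 in the replication libraries, and ERCC scaling 9, 30, 5 and 16 in the last 4. Of these, 2 and 3 (median of ratios and ERCC) were called in at least 1 of both fits in the pooled libraries, 22 and 4 in R and RAm, and 0 elsewhere. Among the genes chosen by the naming rule, those so called in the pooled libraries were Ndufa1 (1.26), Ndufa4 (1.38) and Cox7b (1.31) with ERCC scaling and Atp5b (−0.68) with the median of ratios. In the R and RAm libraries they were Ndufaf4 (0.14) and Uqcr11 (1.74) with ERCC scaling, and Ndufa1 (−1.20), Ndufa4 (−0.81), Ndufb6 (−0.37), Cox6a1 (−0.53), Cox6b1 (−0.16), Cox7b (−0.82), Atp5b (−0.41) and Atp5g2 (−0.88) with the median of ratios.

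Same-numbered two-cell libraries did not deviate together (r of 0.0149 to 0.0654), and a replicate block gave 17 members higher and 0 lower, with a median of 0.68. The four-cell columns carry sequencing numbers that no label pairs. Neighbouring ones (S7 and S8, S15 and S16, S17 and S18) deviated with r of 0.0274 to 0.17, and as a replicate block, chosen after seeing the data, gave 3 members higher, 0 lower and a median of −0.22. For the replication experiment no paired analysis was possible. The column names of its groups share only number 1, and those of D do not match its sample titles. A pseudocount of 0.1 gave 2, 17 and 0 members higher in four-cell, pooled two-cell and replication libraries, and limma-voom 2, 18 and 0. The shares of all genes called with no filter, this pseudocount, limma-voom or a block are not given here. Those counts of members cannot be set against all genes. The planned count-based tests and a comparison by NT timing were not run. Pools of few embryos and 3 libraries a group limit the four-cell and replication comparisons, where most simulated 2-fold changes were missed.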
